A study of Mus musculus with 6 samples.

Results

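The genes described here are 10 antioxidant genes of the NRF2 and glutathione systems, *Gclc*, *Gclm*, *Nqo1*, *Txnrd1*, *Txn1*, *Srxn1*, *Prdx1*, *Gpx1*, *Gpx4* and *Akr1a1*, chosen by name from the 21841 genes of the count table. They were examined by bulk RNAseq in CD206+LYVE-1+ TAMs, a perivascular macrophage population of the tumor, sorted by FACS from 6 tumor-bearing mice. All 6 mice carried the genotype label WT and came from a line (FVB/N-Tg(MMTV-PyVT)634Mul/J) in which the MMTV promoter drives an oncogene in the mammary gland and tumors arise there spontaneously. A group of 3 mice received vehicle, and the other 3 received the HO-1 inhibitor KCL-HO-1i by i.p. injection at 25 µmol/kg daily, with tumors taken after 36 h. The sort is described as 5000 cells for each condition, and the age of the mice is not given in the sources used here.

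NRF2, encoded by *Nfe2l2*, is a transcription factor that the adaptor KEAP1 holds at a low level by marking it for degradation. Electrophiles and oxidants modify KEAP1, and NRF2 then accumulates and binds antioxidant response elements with small MAF proteins, while BACH1 occupies the same elements as a heme-sensitive repressor. The classical targets make glutathione, reduce quinones and feed electrons to the thioredoxin and peroxiredoxin enzymes that remove peroxides. HO-1, the drug target, degrades heme and is itself encoded by an NRF2 and BACH1 target gene, *Hmox1*.

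The estimated counts summed to between 206728 and 338255 in the vehicle libraries and between 207812 and 535224 in the KCL-HO-1i libraries. KCL-HO-1i replicate 3 stood apart, with 41.8% of its counts on mitochondrially encoded genes against 1.17% to 9.68% in the other 5 libraries. KCL-HO-1i replicate 1 had the fewest genes detected, 7584 against 10773 to 17311 in the others. The 15 general macrophage genes together took 0.0246% to 0.172% of the counts with vehicle and 0.423% to 0.796% with KCL-HO-1i. *Mertk*, a macrophage receptor gene, was at 0 in all vehicle libraries and in KCL-HO-1i replicate 1. Not all genes of this list were higher with KCL-HO-1i. *Cd68* measured 44.7, 46.5 and 27.3 normalized CPM with vehicle, against 0, 55.9 and 14.4 with KCL-HO-1i, and the groups of *Fcgr1* overlapped as well. The 13 LYVE-1+ macrophage genes took 0.0317% to 0.139% and 0.522% to 1.04%. *Adgre1*, the gene of the macrophage marker F4/80, measured 16.8, 15.5 and 3.41 normalized CPM with vehicle, values near the level of 3 counts, against 120, 176 and 258 with KCL-HO-1i. *Mrc1*, the gene of CD206, was at 0 in vehicle replicate 2, while *Lyve1* was present in all 6 libraries. Olfactory and vomeronasal receptor genes, which macrophages are not known to use, took 5.97% to 6.39% of the counts with vehicle and 2.19% to 4.14% with KCL-HO-1i. Endothelial genes (0.0292% to 0.0446% against 0.00958% to 0.0255%) and fibroblast genes (0.0269% to 0.0307% against 0.00722% to 0.0108%) were lower with KCL-HO-1i. The summed share of 12 mammary epithelial genes was higher (0.00974% to 0.0320% against 0.0375% to 0.172%), mostly through the milk protein gene *Csn3*. *Csn2*, *Wap* and *Lalba* were at 0 in all vehicle libraries, and *Csn2* and *Wap* also in KCL-HO-1i replicate 2. Of the same list, *Cdh1*, the E-cadherin gene, was lower without overlap, at 27.9, 62.0 and 44.4 normalized CPM against 0, 12 and 0. The shares of T-cell, neutrophil and erythroid genes overlapped between the groups. The part of these differences in the results for the antioxidant genes was not tested. In bulk libraries, fewer cells of a type and less RNA per cell cannot be told apart. The animal codes of the 2 groups do not overlap, so a batch that followed them cannot be told apart from treatment.

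*Prdx1*, *Txn1*, *Gpx1*, *Gpx4* and *Akr1a1*, which encode the enzymes and the carrier protein that reduce peroxides and aldehydes, had higher levels in all 3 KCL-HO-1i libraries than in any vehicle library, with mean levels 6.85-fold to 32.8-fold apart. The genes of glutathione synthesis, *Gclc* and *Gclm*, the quinone reductase gene *Nqo1* and the genes *Txnrd1* and *Srxn1* had overlapping groups. In the quasi-likelihood test of edgeR, adjusted by Benjamini-Hochberg, 0 of the 7 antioxidant genes that passed the count filter were called, as were 0 of 7263 genes tested (0% called), at an adjusted p-value under 0.05 and an absolute log2 fold change above 0.6. DESeq2 over all genes called 165 of 11562 genes tested (0.882% higher and 0.545% lower), with 2 of the 8 antioxidant genes tested among them. Of 7263 genes, limma voom called 299 (4.03% higher and 0.0826% lower), with 4 of the 7 antioxidant genes among them. At an unadjusted p-value under 0.05, 586 of the 7263 genes passed (8.07%), and 5 of the 7 antioxidant genes were among the 364 that were higher (5.01%), with none among the lower ones (3.06%). The same 5 genes were those whose groups did not overlap, against 7.88% of all genes tested that were higher and 16.1% that were lower without overlap. A gene that passed the filter only through the KCL-HO-1i libraries had to differ between the groups, so these counts are a description. The median log2 fold change was 3.34 over the 7 genes and -0.52 over all genes tested, and 32.6% of all genes had a positive value against 6 of these 7. The filter bears on these values too, as genes with few vehicle counts, such as *Akr1a1* (2.32, 9 and 2.61), passed it through the KCL-HO-1i libraries. *Gclc*, *Nqo1* and *Txnrd1*, with overlapping groups, did not pass. Without the filter, the median was 2.16 over the 10 antioxidant genes and -0.52 over all genes fitted.

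**Figure D1:**
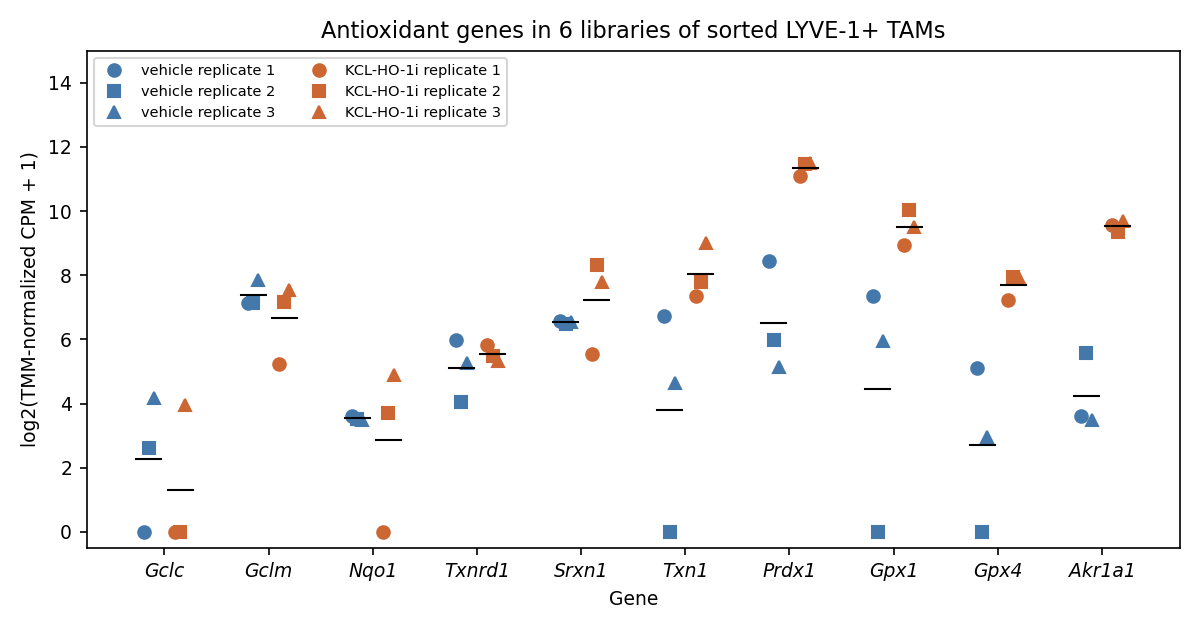
Levels of the 10 antioxidant genes in each library, as log2 of TMM-normalized CPM plus 1, with blue for vehicle and orange for KCL-HO-1i; the marker shape is the replicate number and the bar is the mean of the 3 log2 values of a group. The orange points of *Txn1*, *Prdx1*, *Gpx1*, *Gpx4* and *Akr1a1* all lie above the blue ones, and the groups overlap for the other 5 genes.

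Glutathione is made in a pair of steps, the first of which is catalyzed by glutamate-cysteine ligase, with a catalytic subunit encoded by *Gclc* and a modifier subunit encoded by *Gclm*. *Gclc* (GRCm38 chr9:77754535-77794485, plus strand) had 0, 1 and 5 counts in vehicle replicates 1, 2 and 3 and 0, 0 and 4 counts in KCL-HO-1i replicates 1, 2 and 3. The catalytic subunit was thus at or near the detection floor of 3 counts in both groups, did not pass the filter, and no difference was detectable at this depth. *Gclm* (chr3:122245557-122270732, plus strand) measured 140, 140 and 229 normalized CPM with vehicle, against 36.9, 144 and 187 with KCL-HO-1i. The groups overlapped, and KCL-HO-1i replicate 1 held the lowest level. Its log2 fold change was -0.47 (SE 0.86, 95% interval -2.35 to 1.42, edgeR adjusted p = 0.936, 3 mice in each group). The log2 fold change of *Gclm* was -0.68 without KCL-HO-1i replicate 3, and it was positive without KCL-HO-1i replicate 1 (0.26) or without vehicle replicate 3 (0.07). With scaling to the general macrophage genes in place of TMM, *Gclm* was called lower at a log2 fold change of -4.61 (edgeR adjusted p = 0.0200), in a fit whose median over all genes was -4.47 and in which 72% of genes were called lower and 0.124% higher. A non-coding gene on the opposite strand (*Gm17494*) and a pseudogene on the same strand (*Gm6061*) overlap *Gclm*, so how its reads were assigned is uncertain.

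*Nqo1* encodes an NADPH-dependent quinone reductase and is a standard readout of NRF2 activity. The gene (chr8:107388225-107403206, minus strand) gave 2, 2 and 3 counts in mice on vehicle, against 0, 3 and 8 after KCL-HO-1i. These counts lay around the floor, *Nqo1* did not pass the filter, and the mean levels of 10.6 ± 0.515 and 13.6 ± 14.4 normalized CPM (SD, n = 3 each) did not differ beyond the spread (two-sided exact permutation test, p = 0.7).

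The thioredoxin system passes electrons from NADPH through thioredoxin reductase 1, encoded by *Txnrd1*, to thioredoxin, encoded by *Txn1*, and on to the peroxiredoxins. *Txnrd1* (chr10:82833951-82897712, plus strand) gave 11, 3 and 11 counts in mice on vehicle, against 12, 11 and 11 after KCL-HO-1i, and did not pass the filter. Its mean levels of 38.2 ± 23.0 and 46.2 ± 8.16 normalized CPM (SD, n = 3 each) overlapped (two-sided exact permutation test, p = 0.6), and the gene *Eid3* overlaps it on the same strand. *Txn1* (chr4:57943373-57956411, minus strand) measured 106, 0 and 23.9 normalized CPM with vehicle, against 161, 220 and 510 with KCL-HO-1i. All KCL-HO-1i libraries lay above all vehicle libraries, and vehicle replicate 2 held no count. The log2 fold change of *Txn1* was 2.78 (SE 1.21, 95% interval 0.12 to 5.44), with an edgeR adjusted p-value of 0.593. A processed pseudogene with 95.8% identity to part of the *Txn1* transcript could have taken some of its reads.

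Peroxiredoxin 1, encoded by *Prdx1*, is an abundant cytosolic enzyme that reduces hydrogen peroxide, and sulfiredoxin, encoded by *Srxn1*, restores peroxiredoxins that have been over-oxidized. *Prdx1* (chr4:116685544-116700822, plus strand) measured 347, 62.0 and 34.1 normalized CPM with vehicle, against 2166, 2829 and 2875 with KCL-HO-1i. The lowest KCL-HO-1i library was above the highest vehicle library, and vehicle replicate 1 was the highest of its group. The means were 148 ± 173 and 2623 ± 397 (SD, n = 3 each), with a two-sided exact permutation p-value of 0.1, the smallest that 3 mice against 3 allow. Its log2 fold change was 4.16 (SE 1.07, 95% interval 1.80 to 6.52, edgeR unadjusted p = 0.00256, adjusted p = 0.293). *Prdx1* passed the thresholds in DESeq2 over all genes (adjusted p = 0.00587, with 0.882% of genes called higher and 0.545% lower) and in limma voom (adjusted p = 0.00342, with 4.03% called higher and 0.0826% lower). It also passed in edgeR without vehicle replicate 1, at a log2 fold change of 5.77 and an adjusted p-value of 0.0306 (0.32% of genes called higher and 0.01% lower). Without the filter on low counts edgeR called *Prdx1* and *Akr1a1* higher, with adjusted p-values of 0.0265 and 0.00869 (0.359% of genes called higher and 0.0615% lower). On the filtered genes DESeq2 called *Prdx1*, *Gpx4* and *Akr1a1* higher, with adjusted p-values of 0.00126, 0.0198 and 2.56e-05 (2.26% higher and 0.992% lower). Processed pseudogenes with 90.9% to 98.3% identity to part of its transcript could have taken some of its reads.

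*Srxn1* (chr2:152105516-152111376, plus strand) measured 95.0, 87.9 and 92.2 normalized CPM with vehicle, against 46.1, 316 and 223 with KCL-HO-1i. KCL-HO-1i replicate 1 was the lowest of all 6 libraries and replicates 2 and 3 were the highest, so the groups overlapped. The log2 fold change was 1.08 (SE 0.89, 95% interval -0.88 to 3.04, edgeR adjusted p = 0.879), and it was -3.07 after scaling to the general macrophage genes, above the median of -4.47 over all genes in that fit. *Srxn1* had a spread of 137 normalized CPM (SD, n = 3) around a mean of 195 with KCL-HO-1i, against 3.60 around 91.7 with vehicle.

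The glutathione peroxidases use glutathione to reduce peroxides. *Gpx1* encodes the main cytosolic form and *Gpx4* the form that reduces lipid hydroperoxides within membranes and protects cells from ferroptosis, and both are selenoproteins. *Gpx1* (chr9:108338903-108340343, plus strand) measured 162, 0 and 61.4 normalized CPM with vehicle, against 493, 1047 and 732 with KCL-HO-1i. *Gpx4* (chr10:80047166-80056439, plus strand) measured 33.5, 0 and 6.83 with vehicle, against 147, 248 and 240 with KCL-HO-1i. For both genes the groups did not overlap, and vehicle replicate 2, which also held no *Txn1*, held no count. The log2 fold changes were 3.34 for *Gpx1* (SE 1.20, 95% interval 0.72 to 5.97, edgeR adjusted p = 0.439) and 3.97 for *Gpx4* (SE 1.23, 95% interval 1.26 to 6.69, edgeR adjusted p = 0.322). Both passed the thresholds in limma voom, with adjusted p-values of 0.0133 and 0.0188. A transcribed pseudogene matches 733 bases of the *Gpx4* transcript at 99.7% identity, and the counts of *Gpx4* are uncertain for that reason.

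*Akr1a1* encodes an aldehyde reductase that uses NADPH. The gene (chr4:116636510-116651680, minus strand) lies 33863 bases from *Prdx1*, which is transcribed from the other strand. It had 2.32, 9 and 2.61 estimated counts with vehicle, against 163, 163 and 231 with KCL-HO-1i, or 11.2, 46.5 and 10.2 against 751, 651 and 829 normalized CPM. The groups were far apart, with means of 22.6 ± 20.7 and 744 ± 89.1 normalized CPM (SD, n = 3 each; two-sided exact permutation test, p = 0.1), and vehicle replicates 1 and 3 lay at the detection floor. *Akr1a1* had the largest log2 fold change of the 7 genes tested, 5.03 (SE 0.95, 95% interval 2.95 to 7.10, edgeR unadjusted p = 0.000239, adjusted p = 0.218). It passed the thresholds in DESeq2 over all genes (adjusted p = 0.000378) and in limma voom (adjusted p = 0.00505).

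The values were also computed without KCL-HO-1i replicate 3, the library with the high mitochondrial share. Without it, the log2 fold changes were 4.25 for *Prdx1*, 2.31 for *Txn1*, 3.57 for *Gpx1*, 4.05 for *Gpx4*, 5.06 for *Akr1a1* and 1.23 for *Srxn1*. Other libraries moved single values by more. Without vehicle replicate 1 they were 4.49 for *Txn1*, 4.55 for *Gpx1* and 5.63 for *Gpx4*, and without vehicle replicate 2 they were 2.19 for *Txn1*, 2.75 for *Gpx1* and 6.03 for *Akr1a1*. *Srxn1* moved to 1.83 without KCL-HO-1i replicate 1. Summed over the 10 genes, the share of a library's counts was 0.0842%, 0.0331% and 0.0453% with vehicle, against 0.403%, 0.431% and 0.296% with KCL-HO-1i. With mitochondrially encoded genes left out of the totals, the shares ranged from 0.0335% to 0.0875% with vehicle and from 0.442% to 0.508% with KCL-HO-1i.

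**Figure D2:**
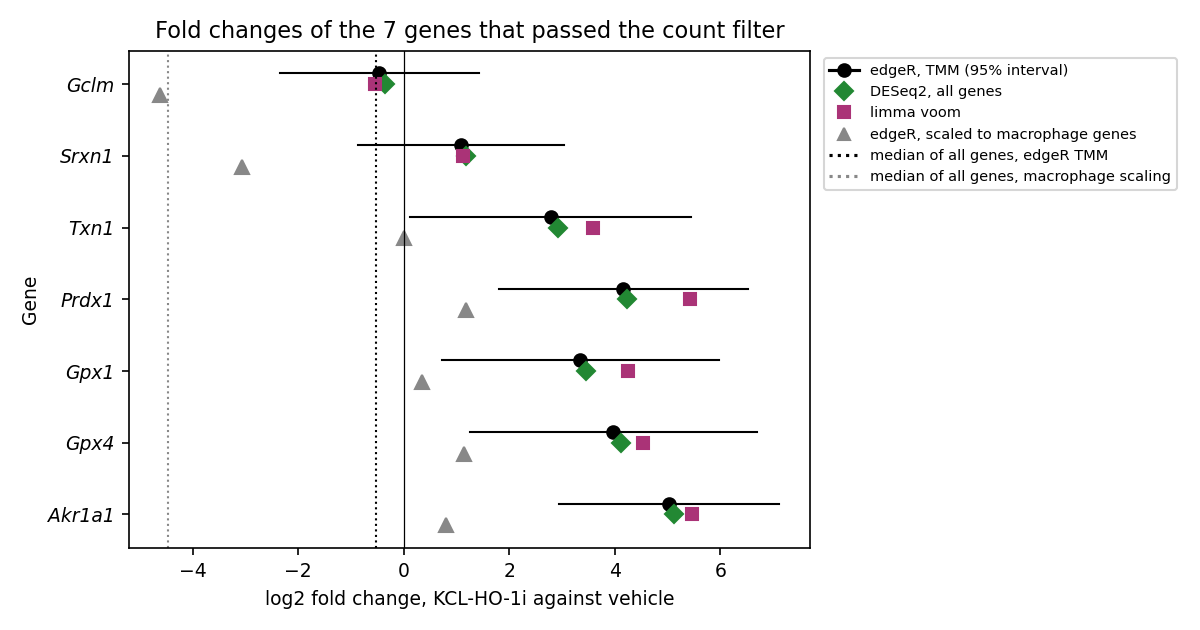
log2 fold change of KCL-HO-1i against vehicle for the 7 antioxidant genes that passed the count filter, by edgeR with its 95% interval, DESeq2, limma voom and edgeR scaled to the general macrophage genes; the dotted lines are the medians over all genes tested, at -0.52 and -4.47. The intervals of *Gclm* and *Srxn1* cross 0, those of the other 5 genes do not, and under macrophage scaling every gene moves to the left.

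The share of macrophage transcripts differed between the groups, so the genes were also set against the 15 general macrophage genes. Together the 10 antioxidant genes had 489, 1346 and 1225 counts per 1000 macrophage-gene counts with vehicle, against 799, 542 and 698 with KCL-HO-1i, and the groups overlapped. On that scale 2 of the 7 genes that passed the filter were higher without overlap, against 0.523% of all genes tested, *Prdx1* at 80.0 to 227 against 278 to 449 and *Gpx4* at 0 to 17.9 against 24.5 to 30.6. The vehicle values of *Gpx4* rest on only 6.36, 0 and 2.18 estimated counts, over 356, 53.0 and 125 macrophage-gene counts. Its separation on this scale is therefore uncertain. Another 2 of the 7, *Gclm* and *Srxn1*, were lower without overlap, as were 72.7% of all genes tested, and of the genes below the filter *Nqo1* and *Txnrd1* were lower. The ranges were, for *Gclm*, 70.3 to 536 against 7.64 to 23.0, for *Txnrd1* 30.9 to 87.9 against 4.32 to 11.5 and for *Srxn1* 49.2 to 321 against 9.55 to 31.0. The groups of *Txn1*, *Gpx1*, *Akr1a1* and *Gclc* overlapped. On the share of all counts, 5 of the 7 were higher and 1, *Gclm*, was lower without overlap, against 6.69% and 20% of all genes tested. With mitochondrially encoded genes left out of the totals, 5 were higher and 0 lower, since *Gclm* then overlapped, against 8.12% and 16.1%. With macrophage scaling in place of TMM, the log2 fold changes were 1.18 for *Prdx1*, 1.14 for *Gpx4* and 0.81 for *Akr1a1* (edgeR adjusted p = 0.456, 0.466 and 0.642). They were 0.34 for *Gpx1* and 0.007 for *Txn1*, and none of these genes was called. A change of scaling moves most genes in the same direction, so values relative to the median of all genes cannot show whether a rise holds. Relative to that median, the log2 fold change of *Prdx1* was 4.68 with TMM and 5.65 with macrophage scaling. That of *Akr1a1* was 5.55 and 5.28. *Gclm* lay at the median under both, with 0.06 and -0.14, and *Srxn1* above it with 1.61 and 1.40.

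**Figure D3:**
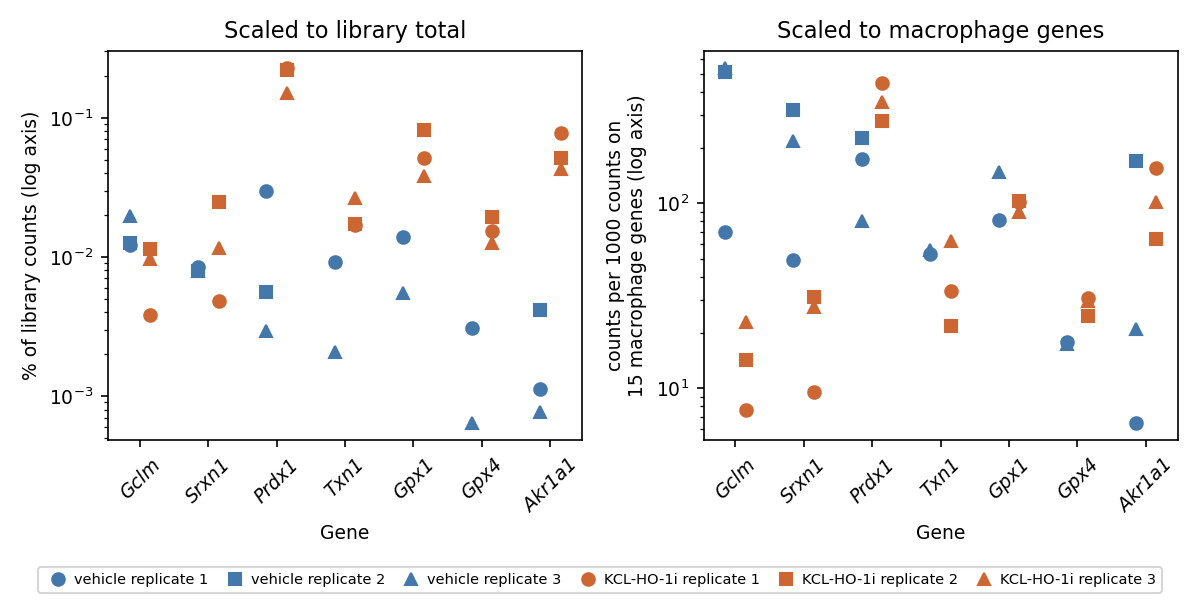
The 7 antioxidant genes that passed the filter in each library, as percent of the library's counts (left) and as counts per 1000 counts on the 15 general macrophage genes (right), both on log axes, on which libraries with no count are not drawn. The separation of *Txn1*, *Gpx1* and *Akr1a1* on the left is absent on the right, where *Gclm* and *Srxn1* are lower with KCL-HO-1i.

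Per kilobase of the longest annotated transcript, the order of levels with KCL-HO-1i was *Prdx1* (1143 ± 173 normalized CPM per kb, SD, n = 3), *Gpx1* (706 ± 259), *Akr1a1* (524 ± 62.8), *Txn1* (282 ± 177), *Gpx4* (213 ± 56.2), *Srxn1* (69.3 ± 48.7), *Gclm* (21.9 ± 13.8), *Txnrd1* (12.8 ± 2.25), *Nqo1* (8.74 ± 9.29) and *Gclc* (1.40 ± 2.42). Of these neighbors, only *Gpx4* and *Srxn1* had ranges that did not overlap. With vehicle, the levels ran from *Gpx1* at 69.5 ± 76.3 and *Prdx1* at 64.3 ± 75.4 through *Txn1*, *Srxn1*, *Gclm*, *Akr1a1*, *Gpx4* and *Txnrd1* to *Nqo1* at 6.82 ± 0.332 and *Gclc* at 2.17 ± 2.56, and only *Nqo1* and *Gclc* were neighbors without overlap. *Akr1a1*, at 15.9 ± 14.6 normalized CPM per kb with vehicle, stood below *Gclm* there and above *Txn1* with KCL-HO-1i.

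Of the 5 genes whose groups did not overlap, 4 have short transcripts. Across 7225 genes of known length the log2 fold change was negatively related to length (Spearman rho -0.269, a value across genes, none of which is an independent replicate). *Txn1*, *Gpx1*, *Gpx4* and *Akr1a1*, with longest transcripts of 1051, 1072, 995 and 1420 bases, belong to the shortest of 10 equal groups of genes by length, in which the median log2 fold change was 1.50, the upper quartile 2.92 and 38.9% of genes were higher without overlap. Of these, *Gpx1*, *Gpx4* and *Akr1a1* lay above that upper quartile and *Txn1* below it. *Prdx1*, at 2294 bases, belongs to the next group, of 2031 to 2750 bases, where the median was -0.28, the upper quartile 0.74 and 10.7% of genes were higher without overlap. *Srxn1*, at 2812 bases, and *Gclm*, at 5589 bases, belong to groups with medians of -0.48 and -0.67. The part of transcript length in these fold changes was not tested.

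**Figure D4:**
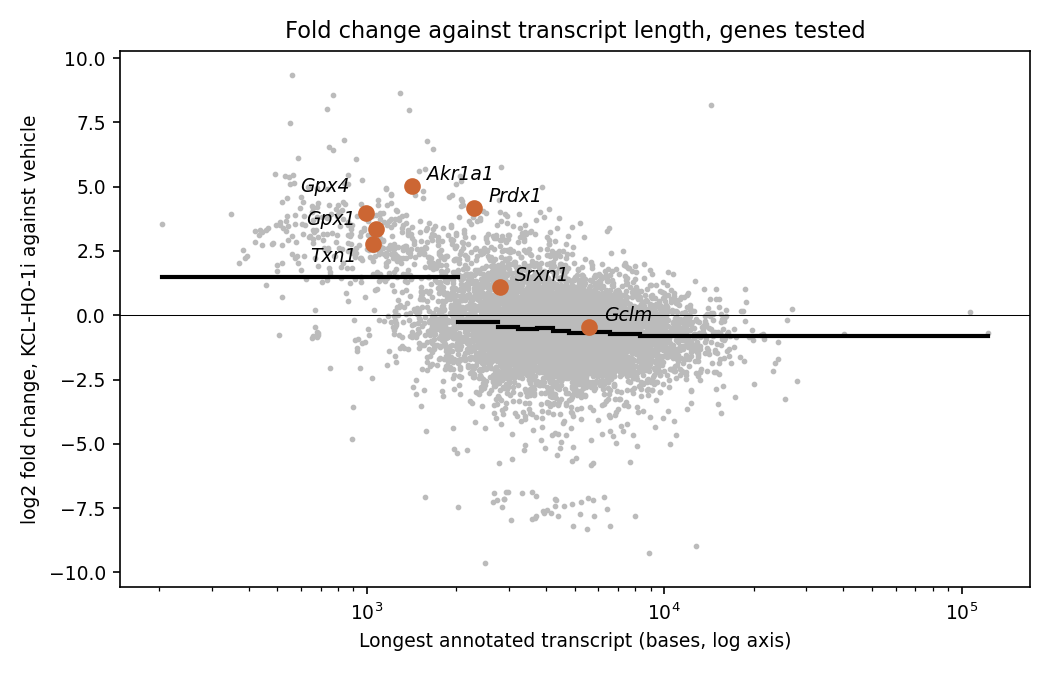
log2 fold change of KCL-HO-1i against vehicle by the length of the longest annotated transcript, on a log axis, for the genes tested; orange points are the antioxidant genes and black bars the medians of 10 equal groups of genes by length. The bar of the shortest group stands at 1.50, *Gpx1*, *Gpx4*, *Txn1* and *Akr1a1* lie above it, and *Prdx1* lies above the bar of its own group at -0.28.

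Promoter windows were examined for the core of the antioxidant response element, TGACNNNGC, on both strands, to see which of the genes carry it near the start site. RefSeq (GRCm38.p6) gave windows of 300 bases, from 250 before to 50 after the start site, for 9 of the 10 genes. The core was found in 4 of these 9 genes (44.4%), against 14.0% of all genes with a window, and in 4 of their 14 windows (28.6%), against 12.4% of all windows. *Gclm*, *Srxn1*, *Prdx1* and *Txnrd1* held it, in each case on the minus strand. These windows are shown 5′ to 3′ in the direction of transcription, with the core in capitals, together with the window of *Akr1a1*, the gene with the largest fold change of those tested, which holds no match.

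*Gclm*, chr3:122245307-122245606, plus strand: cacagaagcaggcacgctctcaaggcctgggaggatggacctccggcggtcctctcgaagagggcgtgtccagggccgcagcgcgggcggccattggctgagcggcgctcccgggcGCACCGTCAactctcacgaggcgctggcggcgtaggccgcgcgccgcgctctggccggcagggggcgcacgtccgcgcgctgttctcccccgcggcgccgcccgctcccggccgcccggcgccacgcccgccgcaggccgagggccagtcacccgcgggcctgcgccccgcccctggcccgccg
*Prdx1*, chr4:116685349-116685648, plus strand: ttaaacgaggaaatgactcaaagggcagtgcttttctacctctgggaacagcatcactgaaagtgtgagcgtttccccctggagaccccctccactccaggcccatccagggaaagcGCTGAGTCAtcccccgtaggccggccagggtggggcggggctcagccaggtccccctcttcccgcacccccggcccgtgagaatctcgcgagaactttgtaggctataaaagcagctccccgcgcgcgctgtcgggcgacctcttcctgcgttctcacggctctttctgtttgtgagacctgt
*Txnrd1*, chr10:82858956-82859255, plus strand: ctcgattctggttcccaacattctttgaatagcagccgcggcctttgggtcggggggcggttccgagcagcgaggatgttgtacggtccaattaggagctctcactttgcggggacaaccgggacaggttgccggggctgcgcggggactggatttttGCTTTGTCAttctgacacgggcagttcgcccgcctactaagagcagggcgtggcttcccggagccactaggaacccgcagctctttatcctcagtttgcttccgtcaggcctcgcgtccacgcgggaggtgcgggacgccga
*Srxn1*, chr2:152105274-152105573, plus strand: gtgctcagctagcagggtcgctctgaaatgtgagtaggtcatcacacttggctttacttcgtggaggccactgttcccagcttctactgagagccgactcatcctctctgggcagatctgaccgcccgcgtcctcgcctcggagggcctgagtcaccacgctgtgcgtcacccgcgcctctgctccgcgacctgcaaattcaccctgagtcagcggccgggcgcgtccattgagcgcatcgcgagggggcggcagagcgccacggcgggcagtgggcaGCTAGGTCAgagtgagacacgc
*Akr1a1*, chr4:116651625-116651924, minus strand: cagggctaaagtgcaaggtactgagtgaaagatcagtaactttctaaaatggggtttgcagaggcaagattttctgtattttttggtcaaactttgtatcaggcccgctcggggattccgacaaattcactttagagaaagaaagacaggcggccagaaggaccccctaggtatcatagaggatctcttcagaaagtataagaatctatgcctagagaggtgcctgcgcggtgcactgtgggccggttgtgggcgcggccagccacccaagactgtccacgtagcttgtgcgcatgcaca

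The core of *Gclm* began at position -134 from the start site with the letters GCACCGTCA, that of *Prdx1* at -133 with GCTGAGTCA, that of *Txnrd1* at -92 with GCTTTGTCA, and that of *Srxn1* at 28 with GCTAGGTCA. The core in *Prdx1* also holds, on the other strand, TGACTCA, the motif of AP-1 factors. These letters, or TGAGTCA, their form on the other strand, also stand outside the cores in the printed windows of *Prdx1* and *Srxn1*. No other letters outside the cores were looked for. Of the 4 genes that hold the core in these windows, 1 (*Prdx1*) had groups that did not overlap, and *Txn1*, *Gpx1*, *Gpx4* and *Akr1a1* had separate groups and no match in theirs. A match describes letters only, and no match says only that these letters are not in this window.

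Among genes that passed the filter, the median log2 fold change of the NRF2 regulators was -0.10, against 3.34 for the antioxidant genes. *Nfe2l2* measured 151, 56.9 and 27.3 normalized CPM with vehicle, against 138, 268 and 427 with KCL-HO-1i. The groups overlapped, with a log2 fold change of 1.83 (SE 0.90, edgeR unadjusted p = 0.0674, adjusted p = 0.660). *Keap1* measured 61.5, 93.0 and 113 against 69.1, 71.9 and 75.4 (log2 fold change -0.31, SE 0.93), and the groups overlapped. *Bach1* measured 117, 25.8 and 113 against 249, 212 and 294, and its groups did not overlap (log2 fold change 1.55, SE 0.84, edgeR unadjusted p = 0.0910, adjusted p = 0.731). Of the 11 regulators, 10 passed the filter and 0 were called by edgeR, and 4 had positive values, against 32.6% of all genes tested. Of the 10, 3 were higher without overlap, against 7.88% of all genes tested. The other 2 with no overlap were *Sqstm1* (log2 fold change 3.02), whose product p62 draws KEAP1 away from NRF2, and *Rbx1* (3.10), a subunit of the ubiquitin ligase that KEAP1 recruits. The longest transcript of *Rbx1*, of 1675 bases, belongs to the shortest length group, where 38.9% of genes were higher without overlap. That of *Sqstm1*, of 2673 bases, belongs to the next, with 10.7%. *Bach2*, a relative of *Bach1*, had overlapping groups (-2.56).

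Of 30 other NRF2 target genes, 29 were in the table and 9 passed the filter, and 0 were called by edgeR. Positive values were found for 6 of the 9, against 32.6% of all genes tested, with a median of 1.38. Of the 9, 4 were higher and 1 was lower without overlap, against 7.88% and 16.1% of all genes tested. Among the higher were the glutathione transferase genes *Gstp1* (log2 fold change 4.11) and *Mgst1* (3.49) and the esterase gene *Esd* (2.67). Vehicle replicate 2 was at 0 for all 3. Their longest transcripts, of 821, 1167 and 1988 bases, belong to the shortest length group, where 38.9% of genes were higher without overlap. *Slc7a11*, which encodes the cystine transporter that supplies glutathione synthesis, was lower without overlap. It measured 156, 181 and 92.2 normalized CPM with vehicle, against 18.4, 47.9 and 0 with KCL-HO-1i (log2 fold change -2.67, SE 1.29, edgeR unadjusted p = 0.0627, adjusted p = 0.649). Among 24 glutathione enzymes and transporters, 7 passed the filter and 0 were called by edgeR, with a median of -0.15. Of the 7, 1 was higher and 2 were lower without overlap, against 7.88% and 16.1% of all genes tested. *Esd*, the higher gene, and *Slc7a11*, a lower gene, are the same genes as in the list of NRF2 targets. *Glo1*, the glyoxalase gene, was the other gene that was lower (-1.29). The longest transcripts of *Slc7a11* and *Glo1*, of 9223 and 9865 bases, belong to the longest of the 10 length groups, where the median was -0.79. Among 21 further thioredoxin and peroxiredoxin genes, 6 passed the filter and 0 were called by edgeR, with a median of -0.02. Of these 6, *Txndc17*, a thioredoxin-like gene, was higher without overlap (4.07) and was called by DESeq2 and limma voom (adjusted p = 0.0366 and 0.0130). The longest transcript of *Txndc17*, of 981 bases, also belongs to the shortest length group.

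Outside these systems, 7 of 13 superoxide and peroxide genes passed the filter, with a median of -0.50. *Cyba*, the p22phox subunit of the NADPH oxidase, measured 5.59, 0 and 0 normalized CPM with vehicle, against 115, 176 and 309 with KCL-HO-1i, without overlap. Its log2 fold change was 6.55 (SE 1.41, edgeR unadjusted p = 0.000689, adjusted p = 0.218). It passed the filter only through the KCL-HO-1i libraries. Its longest transcript, of 744 bases, is in the shortest length group, where 38.9% of genes were higher without overlap. Of 17 further selenoprotein genes, 7 passed the filter with a median of 0.90, and *Selenop*, the plasma selenoprotein gene that is also a LYVE-1+ macrophage gene, was higher without overlap (4.44), while *Selenot* overlapped (2.05) and *Selenoi* was lower without overlap (-1.63). Among 8 other aldo-keto reductases only *Akr1e1* passed the filter, and it was lower without overlap (-3.16). For comparison, of the 15 general macrophage genes 10 passed the filter and 8 were higher without overlap, against 7.88% of all genes tested, with a median of 3.34. *Hmox1* measured 16.8, 0 and 37.5 normalized CPM with vehicle, against 682, 1263 and 1052 with KCL-HO-1i (log2 fold change 5.69, SE 1.15, edgeR adjusted p = 0.218), and it was called by DESeq2 over all genes (adjusted p = 7.44e-05) and by limma voom (adjusted p = 0.00563). Of the list genes named above, DESeq2 and limma voom both called *Cyba* and *Selenop* higher, and limma voom also called *Rbx1*, *Sqstm1* and *Gstp1*.

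**Figure D5:**
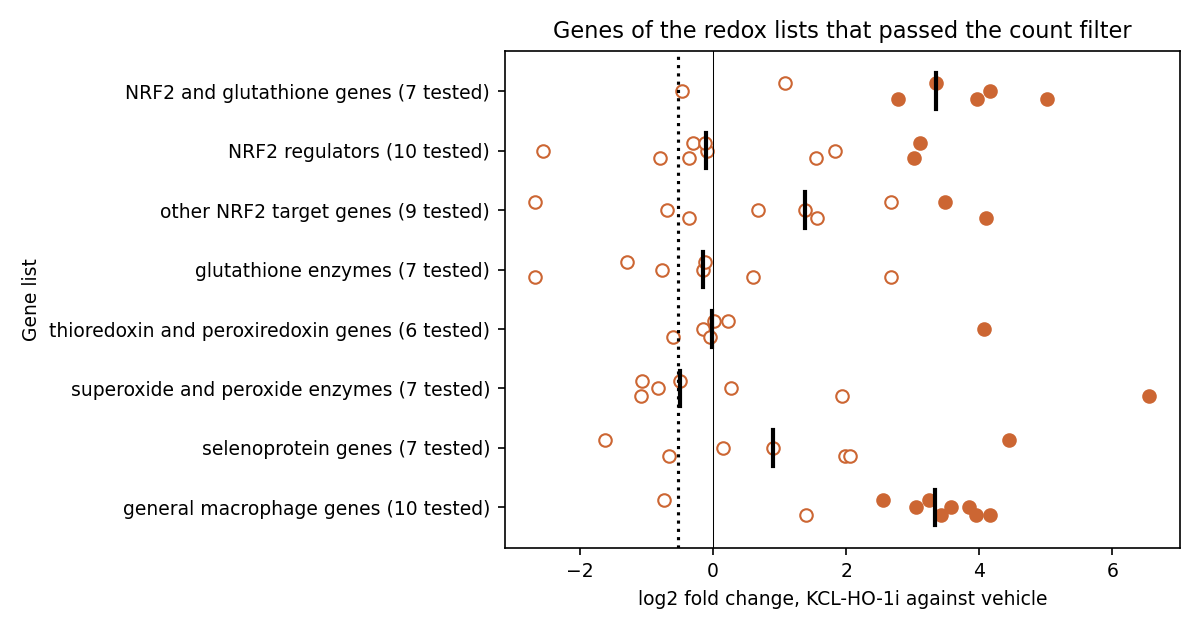
log2 fold change of KCL-HO-1i against vehicle for the genes of 8 lists that passed the count filter, 1 point for each gene, filled at an unadjusted edgeR p-value under 0.05; the bars are the medians of the lists and the dotted line is the median of all genes tested, at -0.52. The antioxidant genes and the general macrophage genes both have a median of 3.34, and the other lists drawn have medians from -0.50 to 1.38.

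The genes whose profile over the 6 libraries was most like that of the summed antioxidant genes were *Rpl23a* (Pearson r = 0.998 of log2 CPM), *Abracl* (0.996), *Uqcrh* (0.993), *Atp5mpl* (0.989) and *Cox8a* (0.988). *Rpl23a* encodes a ribosomal protein, and *Uqcrh*, *Atp5mpl* and *Cox8a* encode small subunits of the respiratory chain and ATP synthase. The 2 groups form separate clusters on this measure, so these values describe the difference between the groups and no p-value is given.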

How the data were processed

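RNA of sorted CD206+LYVE-1+ TAMs was collected with a column kit and libraries were made with a directional kit, 1 for each of 6 mice. Per the labels' processing notes, the tools were FastQC 0.11.9, STAR 2.7.9a, Salmon 1.9.0 and DESeq2 on build mm10, and the annotation is not given in the sources used here. The authors deposited estimated counts for each gene, of which 2.95% to 19.3% in a library were not whole numbers. The study's methods call them TPM, but their totals differ between libraries, from 206728 to 535224. A level of 3 counts, the detection floor, corresponds to 5.61 to 14.5 CPM of a library's total. The counts carry no molecular identifiers, so floors cover counting error only. Each column was matched to its mouse by its name, leaving 0 columns with no sample.

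Counts were rounded to whole numbers and passed through filterByExpr. This filter asks for 15 counts in total and, in enough libraries, the CPM that 10 counts make in a library of median size. A count above 10 in a larger library can fall below that CPM, as for *Txnrd1*. The counts were then scaled by TMM and compared by edgeR 4.0.16 (R 4.3.3), with its quasi-likelihood test and no covariates. Genes were called at a Benjamini-Hochberg adjusted p-value under 0.05 with a log2 fold change of over 0.6 in size. The SE is the size of the log2 fold change divided by the square root of F. Exact permutation tests, two-sided, served for single values and cannot go below p = 0.1 with 3 mice against 3. The p-values measure the spread between these mice. Normalized CPM use the TMM-scaled library size. DESeq2 1.42.0, limma 3.58.1, other scalings, no filter, the replicate number as a block and each mouse left out were alternatives. DESeq2 on the filtered genes was added after the data were seen.

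Positions and transcript lengths come from GENCODE M21 on GRCm38, with a length for 99.5% of genes tested, and may not match the authors' annotation. The antioxidant genes and all gene lists were chosen with earlier results of these data known. Beyond the 10 genes, those named are *Nfe2l2*, *Keap1*, *Bach1*, *Hmox1*, *Lyve1*, *Mrc1* and *Adgre1*, and up to 4 genes of each list with the smallest edgeR p-values. Also named are the 5 most like the summed antioxidant genes, overlapping genes, and marker genes at 0 in the vehicle libraries. *Csn3*, *Cdh1*, *Cd68* and *Fcgr1* were named after their values were seen. Each fitting step was tested on simulated counts. At the dispersion of these data (0.903) and a log2 fold change of 2, edgeR and limma voom called 0 of 144 changed genes. DESeq2 called 9 of 200, and 8 unchanged genes. At a log2 fold change of 6, edgeR called 124 of 151 and limma voom 15 of 151, with 1 and 0 unchanged genes. DESeq2 called 175 of 200 there, and 28 unchanged genes. A count of 0 genes called thus does not show that no gene changed.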

Additional observations from a re-analysis of the deposited data

How the results depend on the processing

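The count of genes called by edgeR (0 of 7263, smallest adjusted p = 0.205) was also 0 with RLE scaling and without mitochondrially encoded genes. DESeq2 called 165 of 11562 genes (102 higher, 63 lower) and limma voom 299 of 7263 (293 and 6). Without the filter, edgeR called 82 of 19518 (70 and 12). DESeq2 on the filtered genes, an alternative chosen after seeing the data, called 236 of 7260 (164 and 72). Of the antioxidant genes tested these 4 fits called 2 of 8, 4 of 7, 2 of 10 and 3 of 7. The medians over those fitted were 2.05, 4.25, 2.16 and 3.47. Scaling to the general macrophage genes called 5240 genes (9 and 5231) and 1 antioxidant gene, with a median of 0.34, and turned *Srxn1* to -3.07. On that scale the log2 ratio of the mean summed shares was -0.59, against 2.80 on all counts. The causes were not tested. With 1 mouse left out, 0 to 33 genes and 0 to 1 antioxidant genes were called, in each case the higher value without vehicle replicate 1, the median of the antioxidant genes ranged from 2.47 to 4.52, and *Gclm* ranged from -0.68 to 0.26, positive without vehicle replicate 3 or KCL-HO-1i replicate 1. *Prdx1*, *Txn1*, *Gpx1*, *Gpx4* and *Akr1a1* were positive in all 14 alternatives, which reuse the same libraries. With macrophage scaling their values ran only from 0.007 for *Txn1* to 1.18 for *Prdx1*, and none of them was called. With the replicate number as a block, 0 genes and 0 antioxidant genes were called and the median was 4.01. The numbers belong to different mice, and same-numbered libraries did not deviate together (r = 0.00089, 0.0297 and -0.0422). The common dispersion of 0.903 and low counts for *Gclc* and *Nqo1*, near the floor, and for *Txnrd1*, at most 12, limit what these libraries can show.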
